A study of Homo sapiens with 12 samples.

Results

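Growth factor receptor tyrosine kinases are the cell-surface receptors through which growth factors, insulin and related ligands reach the RAS/MAP kinase and PI3K/AKT pathways. The 10 genes described here are EGFR, ERBB2, ERBB3, ERBB4, MET, AXL, IGF1R, INSR, FGFR1 and PDGFRB. They were chosen by name from a fixed list, with earlier results of these data known. Each gene was taken as its RefSeq span on GRCh38 with 5 kb added on both sides, and every ATAC-seq peak overlapping that stretch was counted. They are 10 of the 59098 genes on chromosomes 1 to 22 and X, and their peaks merged into 143 of the 178040 regions of the series.

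Chromatin accessibility was measured in MIAPaCa2, a long-established cell line from a ductal adenocarcinoma of the pancreas. Parental cells and LDHA inhibitor resistant cells were each profiled untreated (PBS vehicle in the study's methods) and treated with the LDHA inhibitor oxamate, which blocks lactate dehydrogenase A, giving 4 groups of 3 libraries. Resistant cells were a polyclonal population of the same line that had been kept in oxamate for weeks, so the treated and untreated resistant groups both carry that earlier exposure, and 1 line was used throughout. The comparisons address how accessibility differs with resistance and after short oxamate treatment. No source used here says that the replicates were separate cultures, so p-values measure the spread between these libraries, which may be technical.

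When a ligand binds, most of these receptors pair up and phosphorylate each other on tyrosines, and adaptor proteins dock there and carry the signal inward. EGFR, ERBB2, ERBB3 and ERBB4 form 1 family, in which ERBB2 has no known ligand of its own and ERBB3 has a weak kinase and signals through its partners. MET is the receptor for hepatocyte growth factor, AXL for GAS6, IGF1R and INSR for the insulin-like growth factors and insulin, FGFR1 for fibroblast growth factors, and PDGFRB for platelet-derived growth factors. Open chromatin at a gene's start or inside it marks DNA that regulatory proteins can reach. A peak is not a measure of transcript or protein.

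RefSeq start windows, which run from 250 bases before to 50 after a transcription start, were found for 8 of the 10 genes, 10 windows in all, because EGFR and AXL have 2 each. ERBB3 and FGFR1 had none in the table used. The windows below are the ones where the calls differed most from each other. EGFR and AXL have an open start and a second start inside the gene, and ERBB4 and PDGFRB have starts with few or no peaks. They are RefSeq sequences of GRCh38.p14, written 5′ to 3′ along the gene, with matches on either strand to the GC box GGGCGG (the core of Sp1-type sites) or to the AP-1 heptamer TGAGTCA in capitals. The EGFR first start lies at chr7:55018767-55019066 and its second at chr7:55109589-55109888, both on the plus strand. The AXL starts lie at chr19:41218973-41219272 and chr19:41226505-41226804, also on the plus strand. The ERBB4 start lies at chr2:212538753-212539052 and the PDGFRB start at chr5:150155796-150156095, both on the minus strand.
EGFR first start: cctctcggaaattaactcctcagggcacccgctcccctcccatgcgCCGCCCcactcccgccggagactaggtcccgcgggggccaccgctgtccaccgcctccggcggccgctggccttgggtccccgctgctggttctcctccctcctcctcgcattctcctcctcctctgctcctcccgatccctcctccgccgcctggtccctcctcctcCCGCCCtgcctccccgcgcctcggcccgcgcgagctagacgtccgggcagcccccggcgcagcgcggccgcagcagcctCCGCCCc
EGFR second start: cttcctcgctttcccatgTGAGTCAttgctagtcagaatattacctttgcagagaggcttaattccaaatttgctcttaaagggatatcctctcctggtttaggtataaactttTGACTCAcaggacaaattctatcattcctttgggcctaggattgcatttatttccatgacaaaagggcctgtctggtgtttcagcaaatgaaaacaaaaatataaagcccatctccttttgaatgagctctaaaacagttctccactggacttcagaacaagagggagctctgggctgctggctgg
AXL first start: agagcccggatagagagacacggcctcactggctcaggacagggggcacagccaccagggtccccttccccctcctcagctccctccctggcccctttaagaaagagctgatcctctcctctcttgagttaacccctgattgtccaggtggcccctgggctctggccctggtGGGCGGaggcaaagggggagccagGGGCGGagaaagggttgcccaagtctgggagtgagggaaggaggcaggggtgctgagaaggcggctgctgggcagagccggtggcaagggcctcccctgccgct
AXL second start: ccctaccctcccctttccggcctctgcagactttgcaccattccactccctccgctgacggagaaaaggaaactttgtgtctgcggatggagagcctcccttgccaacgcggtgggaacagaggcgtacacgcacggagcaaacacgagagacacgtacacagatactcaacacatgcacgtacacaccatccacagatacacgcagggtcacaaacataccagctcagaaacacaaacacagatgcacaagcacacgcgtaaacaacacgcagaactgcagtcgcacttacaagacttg
ERBB4 start: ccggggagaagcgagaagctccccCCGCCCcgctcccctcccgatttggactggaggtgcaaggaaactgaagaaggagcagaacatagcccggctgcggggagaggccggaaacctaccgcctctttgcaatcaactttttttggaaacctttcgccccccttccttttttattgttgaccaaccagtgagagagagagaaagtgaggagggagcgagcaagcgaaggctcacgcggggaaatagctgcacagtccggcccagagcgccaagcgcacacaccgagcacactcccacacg
PDGFRB start: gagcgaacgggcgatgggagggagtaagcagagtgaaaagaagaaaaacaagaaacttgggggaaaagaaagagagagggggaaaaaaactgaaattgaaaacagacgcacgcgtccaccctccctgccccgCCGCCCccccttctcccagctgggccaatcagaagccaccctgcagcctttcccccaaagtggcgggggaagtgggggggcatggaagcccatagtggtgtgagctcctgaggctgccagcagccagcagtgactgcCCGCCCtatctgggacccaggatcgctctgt

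The 2 EGFR starts were unlike in sequence and alike in being called everywhere. The first was 75.3% G or C with 33 CG dinucleotides and 3 GC boxes. The second was 42.0% G or C with 1 CG dinucleotide, no GC box, 2 AP-1 heptamers and 2 TATAAA matches. Over all 34961 start windows the median was 58.7% G or C and 14 CG dinucleotides, 45% held a GC box, 4.92% an AP-1 heptamer, 11.5% TATAAA and 7.27% the E-box CACGTG, each counted on both strands. Among the 10 member windows 7 held a GC box, 1 an AP-1 heptamer (EGFR second start), 1 TATAAA (the same window) and 1 an E-box (MET). A match is a description of the letters and says nothing of binding.

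A peak overlapped the start window in 12 of 12 libraries at 7 of the 10 windows, which were both EGFR starts, ERBB2, MET, AXL first, IGF1R and INSR. Over the start windows of protein-coding genes in the series, 46.7% of 22132 had a peak in 12 libraries and 38.1% had a peak in 0. When only peaks with a -log10 q of at least 3 were used, 3 of the 10 member windows had a peak in 12 libraries, and the share over all windows was not computed at that limit. Of windows with 9 or fewer CG dinucleotides, 5.58% had a peak in 12 libraries, and the second EGFR start and the first AXL start, with 1 and 7, were among them. With 30 or more the share was 70.1%, and EGFR first (33), MET (30), IGF1R (55) and INSR (36) lay in that class.

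The remaining 3 windows were mostly closed. No library had a peak in the ERBB4 window, which holds 19 CG dinucleotides. Of protein-coding start windows with 10 to 19 of them, 45% had a peak in 12 libraries and 37.0% in 0. The PDGFRB and AXL second windows, with 11 and 17, lie in the same class. The PDGFRB window was touched by 1 peak, in untreated resistant replicate 3, over 72 of its 300 bases. The AXL second start was touched in 4 libraries, 2 untreated parental, 0 treated parental, 1 untreated resistant and 1 treated resistant, by at most 114 bases, and the peak beside it ended short of the window in the other 8.

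The ERBB2 window had the highest-ranked peak of the start windows. Ranked by -log10 q within its own list, this peak lay among the best 2.59 to 8.08% of peaks. The authors' fold for it was between 6.30 and 10.6. It also covers the PGAP3 start, so its rank cannot be assigned to ERBB2 alone. The region 12.2 kb into ERBB2 ranked at 30.3 to 67.3%. The MET start peak lay at 6.00 to 28.2%, the first EGFR start at 21.97 to 47.8% and the IGF1R start at 20.9 to 68.1%. These ranks are within a list, since fold and q belong to a library of its own depth.

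**Figure D1:**
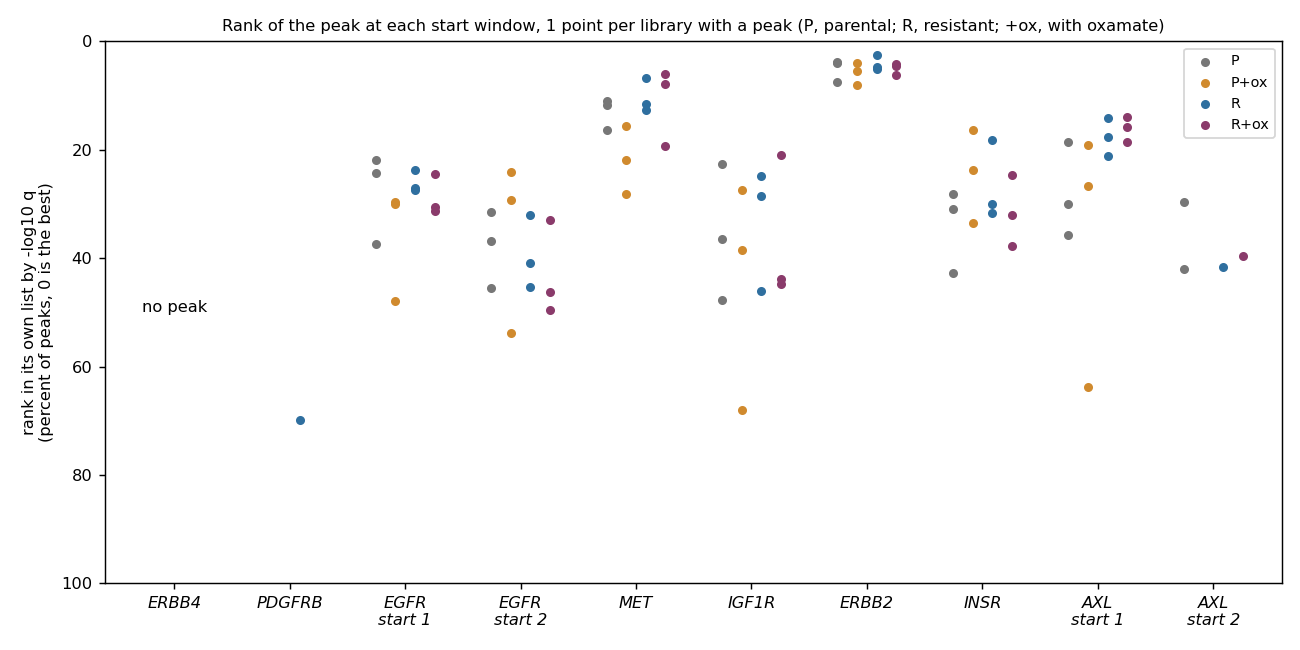
Rank of the peak at each RefSeq start window (horizontal axis), as the percent of the peaks of its own list with a better -log10 q (vertical axis, 0 is the best), with 1 point per library that has a peak there, coloured by group (P parental, R resistant, +ox with oxamate). ERBB2 sits between 2.59 and 8.08%, the ERBB4 window has no peak, and the AXL second start has 4 points and PDGFRB 1.

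For the receptors without a start window, peaks within 1 kb of the gene ends were used. ERBB3 had a peak at both ends in 12 libraries, over chr12:56078801-56080322 and chr12:56103971-56105344, and the second of these also covers the starts of PA2G4 and of a long non-coding RNA. FGFR1 likewise had a peak at both ends in 12 libraries, at chr8:38410546-38411037 and chr8:38467653-38468932.

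Of the 143 regions, 33 (23.1%) were called in 12 libraries and 69 (48.3%) in 1, against 13.6% and 59.5% of the regions of the series. The 33 shared regions held 83.7% of the bases covered at the receptor genes. Most of them were not at starts, as 18 lay within a gene body, 8 at a start window, 4 within 1 kb of a gene end and 3 in the flank. Regions over the start of another gene held 17.1% of the covered bases in all, and 60.5% at ERBB2, whose start region also covers the PGAP3 start and whose flank holds the MIEN1 start. Peaks carry no strand, so such bases cannot be assigned to 1 of the genes, and the same holds for long non-coding RNAs that overlap a receptor, such as COMETT at MET and IRAIN at the IGF1R start.

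Per kb of the extended gene, ERBB3 had the highest mean at 65.4 bp covered, above 83.7% of protein-coding genes, followed by AXL at 61.8, ERBB2 at 52.5 and EGFR at 38.8. IGF1R (23.4) and FGFR1 (21.2) lay near the median of 24.7 over 16974 protein-coding genes with a peak in at least 3 libraries. MET (16.6), PDGFRB (16.5) and INSR (14.4) lay between that median and the lower quartile of 10.8. ERBB4 had 0.354 bp per kb, lower than all but 0.754% of those genes. Ranges over libraries overlapped between neighbours in this order, from 41.4 to 92.7 at ERBB3 and 33.9 to 85.9 at AXL, whereas ERBB4 (0 to 1.11) lay under PDGFRB (5.25 to 28.2) in every library.

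Libraries differed as wholes, and every comparison of covered bases has to be read against that. Covered bases per library lay between 13.8 and 33.7 Mb and peaks between 45748 and 62414. Parental libraries covered 23.7 ± 2.64 Mb untreated and 17.2 ± 2.97 Mb treated, and resistant libraries 28.9 ± 4.28 Mb untreated and 26.6 ± 4.77 Mb treated (SD, n = 3). The smallest peak width, which follows the fragment length, was 67 to 87 bp in parental and 94 to 124 bp in resistant libraries. Relative read depth was a background level, estimated from the fold and -log10 p columns, divided by that smallest width, with the shallowest library at 1. It was highest in treated parental libraries (2.27 ± 0.559, SD, n = 3) and lowest in treated resistant ones (1.08 ± 0.0688). Because the width enters it, this depth is not a measure separate from fragment length. Fragment length and phenotype cannot be told apart in this design, and neither can a site open in more cells and a site more open in each cell. The median gene had a log2 ratio of resistant over parental covered bases of 0.37, and of 0.0009 when covered bases were divided by the Mb covered in their library (per Mb covered), so values are given on both scales. As a check of the cell type, VIM, CD44 and ITGB1 had a peak at their start in 12 libraries and KRT8 in 7, KRT18 had one in its span in 12, ALB, INS and CD3E had none and PTPRC had one in its span in 2. PECAM1, an endothelial marker, had a peak in its span in 12 libraries, and no start window was used for it. CDKN2A, known to be lost in MIAPaCa2, had none.

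By phenotype, covered bases had a higher mean in resistant than in parental cells at each of the 10 receptor genes, but none of the 10 passed the test at an adjusted p of 0.05 (two-sided exact permutation within treatment, Benjamini-Hochberg over 32585 genes). Per Mb covered the mean was lower in resistant cells at ERBB2, ERBB3, MET, AXL and INSR. In the series, 10.2% of genes were called higher and 0.0614% lower, and all of these had the smallest p the design allows, 0.005 by exact permutation. A gene at that p is called only when enough other genes share it, here and in the treatment and interaction tests. With an unadjusted exact p, 5 receptors were under 0.05 (EGFR, ERBB3, ERBB4, IGF1R and FGFR1), and 12243 genes of the series were. The same 5 passed an adjusted p of 0.05 with limma on log2(bp + 100), where 29% of genes did. By exact permutation, leaving out untreated resistant replicate 2 gave 3 called receptors (EGFR, ERBB4 and IGF1R) and 6561 called genes of the series. Leaving out treated resistant replicate 2 gave 1 receptor (ERBB4) and 3550 genes. With all libraries 3358 genes were called. Over all settings tried, limma included, the adjusted p by phenotype ranged from 0.0327 to 0.977 at EGFR, 0.0312 to 0.96 at ERBB3, 0.0191 to 0.192 at ERBB4, 0.0109 to 0.185 at IGF1R and 0.0055 to 0.309 at FGFR1. It stayed above 0.05 under every setting at the other 5, from 0.0779 to 0.812 at ERBB2, 0.0666 to 0.781 at MET, 0.0532 to 0.573 at AXL, 0.0611 to 0.99 at INSR and 0.0957 to 0.724 at PDGFRB.

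**Figure D2:**
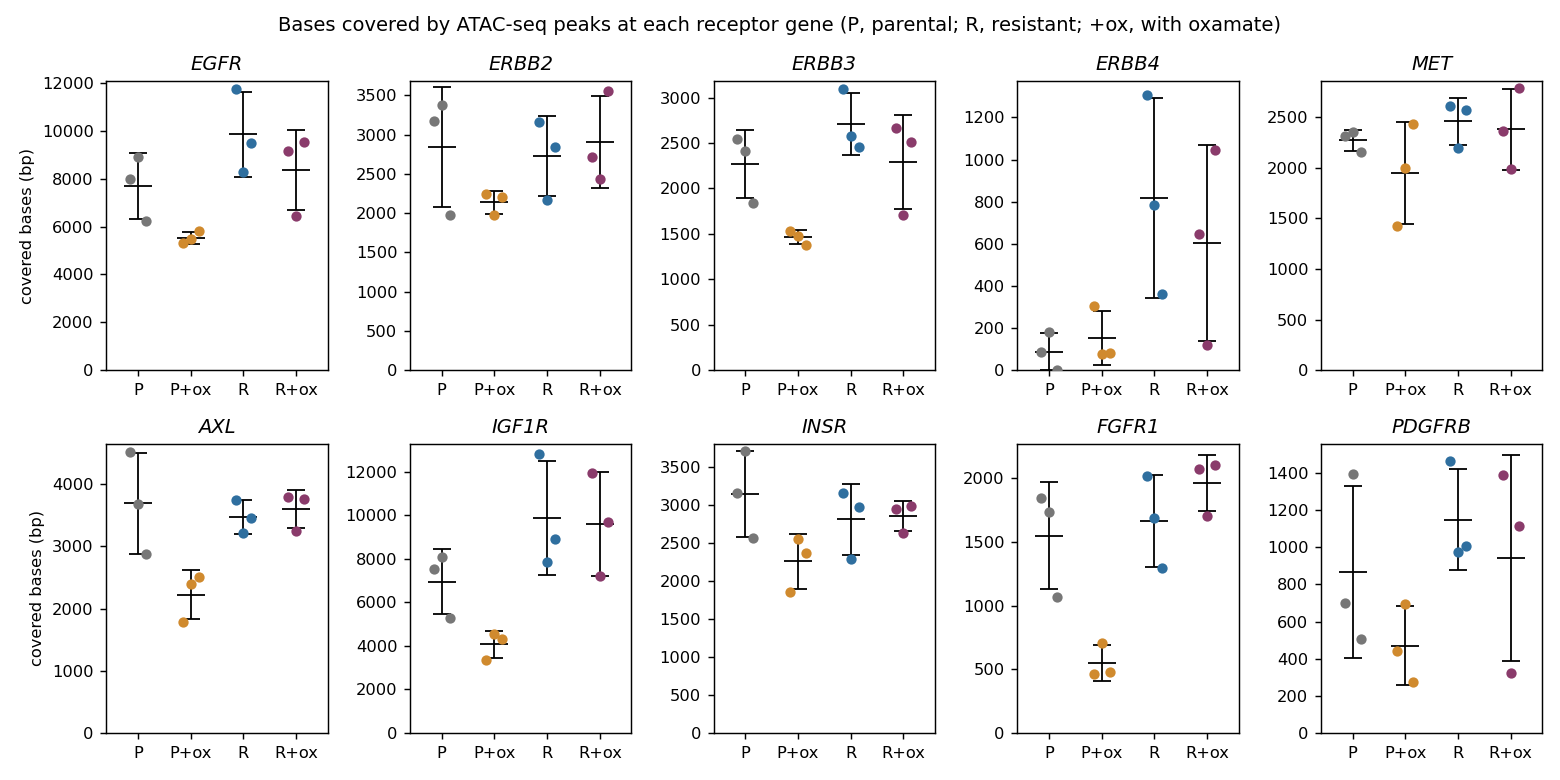
Covered bases of the extended gene in bp (vertical axis, from 0) for each receptor gene in the 4 groups (horizontal axis: P parental, R resistant, +ox with oxamate). Points are the 3 libraries, the black bar is the mean and its whiskers the SD. Treated parental libraries lie under the untreated parental ones at EGFR, ERBB3, AXL, IGF1R, INSR and FGFR1.

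EGFR, the receptor for EGF and TGF-alpha (gene span chr7:55019017-55211628), had the most covered bases of the 10. Untreated parental libraries had 7992, 8922 and 6215 bp and treated parental ones 5293, 5489 and 5807 bp. Untreated resistant libraries had 11755, 8288 and 9504 bp and treated resistant ones 9144, 6449 and 9512 bp. The 3 treated parental libraries were below all 9 others, and 4 of 6 resistant libraries were above every parental one. The resistant mean was 9109 ± 1736 bp and the parental mean 6620 ± 1486 bp (SD, n = 6), a 1.38-fold difference with an adjusted p of 0.0611 by exact permutation. Per Mb covered the difference was 1.88 bp (exact permutation p = 0.92), with group means between 315 and 340.4 bp per Mb covered.

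The EGFR difference was spread over several regions. The region over its first start (chr7:55018625-55020797) was covered over 1067, 1692 and 1246 bp in untreated parental libraries, 829, 958 and 1252 in treated parental ones, 1947, 1783 and 1714 in untreated resistant ones and 1742, 1334 and 2173 bp in treated resistant ones. This region also covers the start of a long non-coding RNA, so its bases cannot be assigned to EGFR alone. It was wider in resistant than in parental cells without overlap in both treatment states. By contrast, the region 114.4 kb into the gene (chr7:55132626-55134154) ranked among the best 1.00 to 5.81% of peaks and covered 1059 to 1511 bp, with no pair of groups apart. The second start lies in chr7:55108805-55110057, where treated parental libraries (429, 510 and 438 bp) were below untreated parental ones (1094, 989 and 564 bp).

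ERBB2, the ligandless partner of the family (chr17:39688094-39728658), had 3172, 3380 and 1972 bp in untreated parental and 2240, 1973 and 2207 bp in treated parental libraries. Resistant libraries had 3166, 2166 and 2845 bp untreated and 2720, 2441 and 3559 bp treated. All groups overlapped except that the treated resistant libraries were above the treated parental ones. The phenotype difference was 326 bp with an adjusted p of 0.458 by exact permutation, and -20.8 bp per Mb covered. Its widest shared region, over the MIEN1 start (chr17:39729586-39730871), covered 746 to 1231 bp. The region 12.2 kb into the gene (chr17:39699688-39700892) covered 539, 687 and 609 bp in treated parental and 1158, 1057 and 1171 bp in treated resistant libraries.

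ERBB3, which signals through its partners (chr12:56080108-56103505), had 2545, 2416 and 1845 bp in untreated parental and 1532, 1476 and 1382 bp in treated parental libraries. Resistant libraries had 3097, 2580 and 2455 bp untreated and 2664, 1706 and 2508 bp treated. Treated parental libraries were again the lowest, under all 9 others. The difference by phenotype was 636 bp with an adjusted p of 0.0611 by exact permutation, and -1.36 bp per Mb covered. The region at the lower-coordinate end (chr12:56078801-56080322) carried more than any other at this gene, with 629, 807 and 825 bp in treated parental against 1490, 1329 and 951 bp in untreated parental libraries.

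ERBB4, a receptor for neuregulins (chr2:211375717-212538802), was nearly closed. It had 87, 179 and 0 bp in untreated parental libraries, 303, 76 and 83 bp in treated parental ones, 1307, 783 and 360 bp in untreated resistant ones and 646, 119 and 1046 bp in treated resistant ones. Untreated resistant libraries did not overlap with untreated parental ones, and this held per Mb covered. Treated groups overlapped through treated resistant replicate 2. The phenotype difference was 589 bp, 710 ± 436 against 121 ± 106 bp (SD, n = 6), with an adjusted p of 0.0702 by exact permutation, and 17.7 bp per Mb covered (adjusted p = 0.192 by exact permutation).

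Most of that difference lay in 3 regions of small peaks deep in the gene, with mean differences of 217, 97.7 and 176 bp. The region 927.5 kb from the start (chr2:211611158-211611495) was called in 0 of 6 parental and 5 of 6 resistant libraries, over 190 to 314 bp. Its two-sided Fisher exact p was 0.0152, the only one under 0.05 among 11 receptor regions called in 5 to 7 libraries. After adjustment 0% of 9507 such regions in the series passed by Fisher's exact test (smallest adjusted p 0.0807), while at an unadjusted p 8.71% had more resistant and 2.7% fewer resistant libraries. The region 793.3 kb from the start (chr2:211745408-211745564) was called in 2 untreated parental, 0 treated parental and 6 resistant libraries, over at most 153 bp. Another, 533.4 kb from the start (chr2:212005201-212005526), was called in 4 resistant and 0 parental libraries. The peaks of these 3 regions ranked between 35.6 and 71.8% of their lists. Untreated resistant replicate 1 alone also had a peak of 514 bp, 23.1 kb from the start, at a rank of 12.0%.

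MET, the hepatocyte growth factor receptor (chr7:116672196-116798377), had 2308, 2349 and 2153 bp in untreated parental and 1421, 2000 and 2425 bp in treated parental libraries. Resistant libraries had 2611, 2190 and 2568 bp untreated and 2360, 1989 and 2785 bp treated. No pair of groups was apart. The difference by phenotype was 308 bp with an adjusted p of 0.248 by exact permutation, and it turned to -16.5 bp per Mb covered (adjusted p = 0.154 by exact permutation). The start region (chr7:116671667-116672569) was the steadier part, with 649 to 704 bp in the 6 parental and 750 to 886 bp in the 6 resistant libraries, which did not overlap. The widest shared region lies 52.2 kb into the gene (chr7:116723730-116725105) and ranged from 258 to 1204 bp.

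AXL, the GAS6 receptor (chr19:41219223-41261766), differed between treated and untreated parental cells. Untreated parental libraries had 4515, 3683 and 2886 bp and treated parental ones 1779, 2389 and 2509 bp. Resistant libraries had 3752, 3214 and 3453 bp untreated and 3790, 3248 and 3770 bp treated, so only the treated parental group was apart from the rest. The treated minus untreated difference was -1469 bp in parental and 129.7 bp in resistant cells. The difference between these, 1599 bp, had an exact permutation p of 0.035 and an adjusted p of 0.839. By phenotype the difference was 578 bp with an adjusted p of 0.26 by exact permutation, and -13 bp per Mb covered.

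A single region of AXL held 670 bp of the 1469 bp by which treated parental libraries were lower on average. This block, centred 6.8 kb from the first start and reaching the second in 4 libraries (chr19:41225463-41226618), was covered over 927, 1021 and 1073 bp in untreated parental and 307, 436 and 268 bp in treated parental libraries. It covered 1118, 834 and 952 bp in untreated resistant and 1028, 1005 and 1034 bp in treated resistant libraries. The 3 treated parental values lie under all 9 others. The first start region (chr19:41218590-41219447) showed no such gap between the parental groups, with 565, 691 and 350 bp untreated and 453, 611 and 558 bp treated, and was wider in all 6 resistant libraries at 710 to 858 bp. The widest shared region lies in the flank over the HNRNPUL1 start (chr19:41263280-41264584) and covered 743 to 1237 bp.

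**Figure D3:**
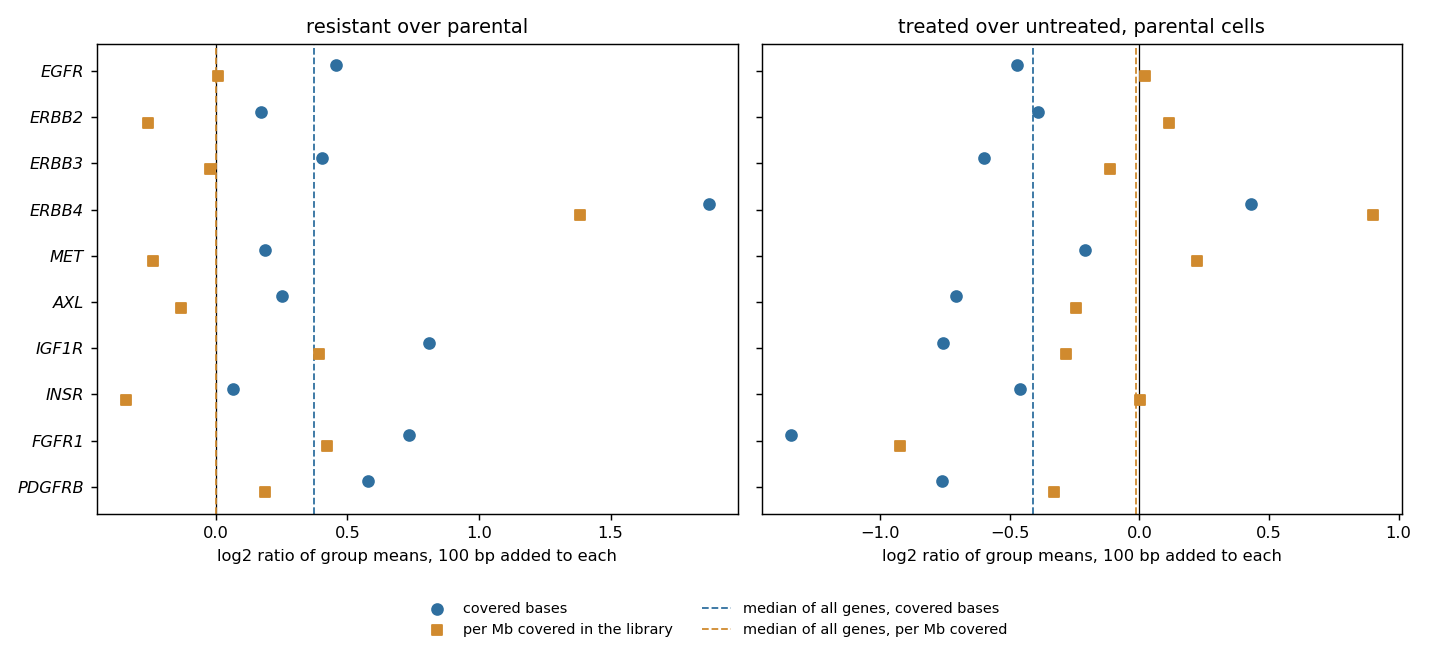
Log2 ratio of group means for each receptor gene (vertical axis), with 100 bp added to each mean, for resistant over parental (left) and treated over untreated parental cells (right). Circles are covered bases and squares covered bases per Mb covered in the library, and dashed lines are the medians of all 32585 genes on the same scales. On the left, ERBB4 (1.87, and 1.39 per Mb covered), IGF1R (0.81 and 0.39) and FGFR1 (0.74 and 0.42) lie farthest to the right, and on the right FGFR1 lies farthest to the left (-1.35 and -0.92).

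IGF1R, the main receptor for insulin-like growth factors (chr15:98648539-98964530), had the largest phenotype difference in bp of the 10. Untreated parental libraries had 7516, 8083 and 5266 bp and treated parental ones 3365, 4533 and 4310 bp. Untreated resistant libraries had 12812, 7852 and 8908 bp and treated resistant ones 11929, 7192 and 9668 bp. Treated parental libraries were below all others, while the 2 lowest resistant libraries overlapped with untreated parental ones. The resistant mean was 9727 ± 2235 bp and the parental mean 5512 ± 1881 bp (SD, n = 6), 1.76-fold, with an adjusted p of 0.0611 by exact permutation. Per Mb covered it stayed higher by 84 bp (exact permutation p = 0.01, adjusted p = 0.135), with groups of 291 ± 32.5 and 238 ± 5.52 in parental and 338 ± 38.0 and 358 ± 26.8 bp per Mb covered in resistant cells, untreated before treated (SD, n = 3).

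Within IGF1R, the intragenic regions 217.5 and 225.8 kb from the start held the largest mean differences, 822 and 671 bp, ahead of the start region at 661 bp. The first of them (chr15:98865100-98867060) was covered over 674, 776 and 326 bp in untreated parental libraries, 127, 164 and 164 bp in treated parental ones, 1606, 378 and 1144 bp in untreated resistant ones and 1555, 1154 and 1329 bp in treated resistant ones. The region 105.8 kb from the start (chr15:98753949-98754641) was called in every library but the 3 treated parental ones, over 197 to 625 bp. A small region at 157.2 kb (chr15:98805561-98805987) was called in 3 of 3 untreated and 0 of 3 treated resistant libraries. The region at 131.2 kb (chr15:98779479-98780062) stayed between 479 and 564 bp in 12 libraries. The start region (chr15:98647008-98650229), the widest of all 143, ranged from 894 to 2929 bp.

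INSR, the insulin receptor (chr19:7112265-7294414), differed least by phenotype in bp. It had 3158, 3711 and 2572 bp in untreated parental libraries, 1860, 2556 and 2367 bp in treated parental ones, 3165, 2289 and 2982 bp in untreated resistant ones and 2946, 2628 and 2987 bp in treated resistant ones. Treated parental libraries were below untreated parental and treated resistant ones, narrowly in both cases. The phenotype difference was 129 bp (adjusted p = 0.748 by exact permutation). Per Mb covered it was -28.7 bp, at the smallest exact permutation p of 0.005, with an adjusted p of 0.106. A region 141.5 kb from the start (chr19:7152700-7153142) was called in 3 of 3 untreated parental libraries, over 109, 206 and 283 bp, and in 0 of the other 9. The intragenic region 96.5 kb from the start (chr19:7197176-7198565) covered 1319 to 1385 bp in 11 libraries and 1024 bp in treated parental replicate 1. The start region (chr19:7293367-7295258), the widest at this gene, covered 493 to 1533 bp.

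FGFR1, a fibroblast growth factor receptor (chr8:38411143-38468635), had the lowest ratio of treated to untreated parental covered bases of the 10. Untreated parental libraries had 1844, 1737 and 1066 bp and treated parental ones 460, 709 and 477 bp. Resistant libraries had 2015, 1686 and 1293 bp untreated and 2073, 1705 and 2102 bp treated. The treated parental mean was 0.354 of the untreated one, and the treated resistant mean 1.18 times the untreated. The difference of these differences was 1296 bp with an exact permutation p of 0.01, and 49.2 bp per Mb covered with an exact permutation p of 0.005, at adjusted p of 0.839 and 0.836. Over all settings its adjusted p ranged from 0.137 with limma to 1. By phenotype the difference was 764 bp (adjusted p = 0.104 by exact permutation), and 17.9 bp per Mb covered.

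Both ends of FGFR1 had less covered in treated parental cells. The region at the higher-coordinate end (chr8:38467653-38468932) had 338, 555 and 394 bp in treated parental libraries and 559 to 1279 bp in the other 9. At the lower-coordinate end (chr8:38410546-38411037) treated parental libraries had 122, 154 and 83 bp against 266, 287 and 274 bp untreated. A small region beside it (chr8:38411673-38411975) was called in 3 of 3 untreated and 0 of 3 treated parental libraries and in 4 of 6 resistant ones. A long non-coding RNA gene overlaps that end.

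PDGFRB, a platelet-derived growth factor receptor of mesenchymal cells (chr5:150113839-150155845), had few and variable peaks. It had 702, 1392 and 506 bp in untreated parental libraries, 439, 697 and 273 bp in treated parental ones, 1464, 977 and 1005 bp in untreated resistant ones and 1391, 324 and 1112 bp in treated resistant ones. All pairs of groups overlapped, and the difference by phenotype was 377 bp (adjusted p = 0.224 by exact permutation) and 4.90 bp per Mb covered. Its single region called in 12 libraries, 25.7 kb into the gene (chr5:150129800-150130395), covered 226 to 577 bp. The region reaching its start (chr5:150155415-150155867) was called in 6 libraries, 2 parental and 4 resistant, and entered the start window itself in 1.

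By treatment, none of the 10 receptor genes passed the test over both phenotypes. The treated mean was below the untreated mean at all 10, and per Mb covered it was above at ERBB2, ERBB4, MET and INSR. Differences ranged from -1830 bp at EGFR to -73.8 bp at ERBB4, and ERBB3 had the smallest exact permutation p at 0.025 (adjusted p = 0.327). In the series 0% of genes were called by treatment and 0% for the interaction by exact permutation, although 4211 and 1437 genes had an unadjusted p under 0.05. With limma 49 and 7 genes were called, none of them a receptor gene here.

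Read group by group, the treated parental libraries set most of the separations. Treated parental libraries lay below untreated parental ones without overlap at 6 of 10 receptors (EGFR, ERBB3, AXL, IGF1R, INSR and FGFR1) and above at 0, and of all genes 30.8% lay below and 0.605% above. Between treated and untreated resistant cells 0 of 10 were apart in either direction, with 4.78% of all genes lower and 1.3% higher. Untreated resistant libraries lay above untreated parental ones at 1 of 10 (ERBB4), against 16.7% of all genes, and below at 0, against 1.11%. Treated resistant libraries lay above treated parental ones at 7 of 10, all but ERBB4, MET and PDGFRB, against 44.1%, and below at 0, against 1.04%. These pairs share groups, so they are not independent of each other, and 3 against 3 libraries cannot reach an exact p under 0.1.

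Scaled to the Mb covered, fewer receptors were apart, and some in the opposite direction. IGF1R, FGFR1 and AXL were lower in treated than in untreated parental cells, where 9.3% of all genes were lower and 8.73% higher. FGFR1 was higher in treated than in untreated resistant cells, where 4.08% were higher and 2.99% lower. ERBB4 was higher, and AXL and INSR lower, in untreated resistant than in untreated parental cells, where 6.48% were higher and 8.61% lower. IGF1R and FGFR1 were higher, and MET and INSR lower, in treated resistant than in treated parental cells, where 13.9% were higher and 10.9% lower.

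Presence of a peak gave few differences. Of receptor regions called in at least 3 of the 6 libraries compared, 3 of 48 were in 3 untreated and 0 treated parental libraries (IGF1R at 105.8 kb, INSR at 141.5 kb and the small FGFR1 region) and 0 the reverse, against 3.81% lost and 0.483% gained in the series. In resistant cells 1 of 55 was lost with treatment (IGF1R at 157.2 kb) and 0 gained, against 0.59% and 0.511%. Untreated resistant against untreated parental cells gained 1 of 57 (ERBB4 at 927.5 kb) and lost 1 (INSR at 141.5 kb), against 1.65% and 1.04%. In treated cells 2 of 46 were gained in resistant libraries (IGF1R at 105.8 kb and ERBB4 at 793.3 kb) and 0 lost, against 5.82% and 1.79%.

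**Figure D4:**
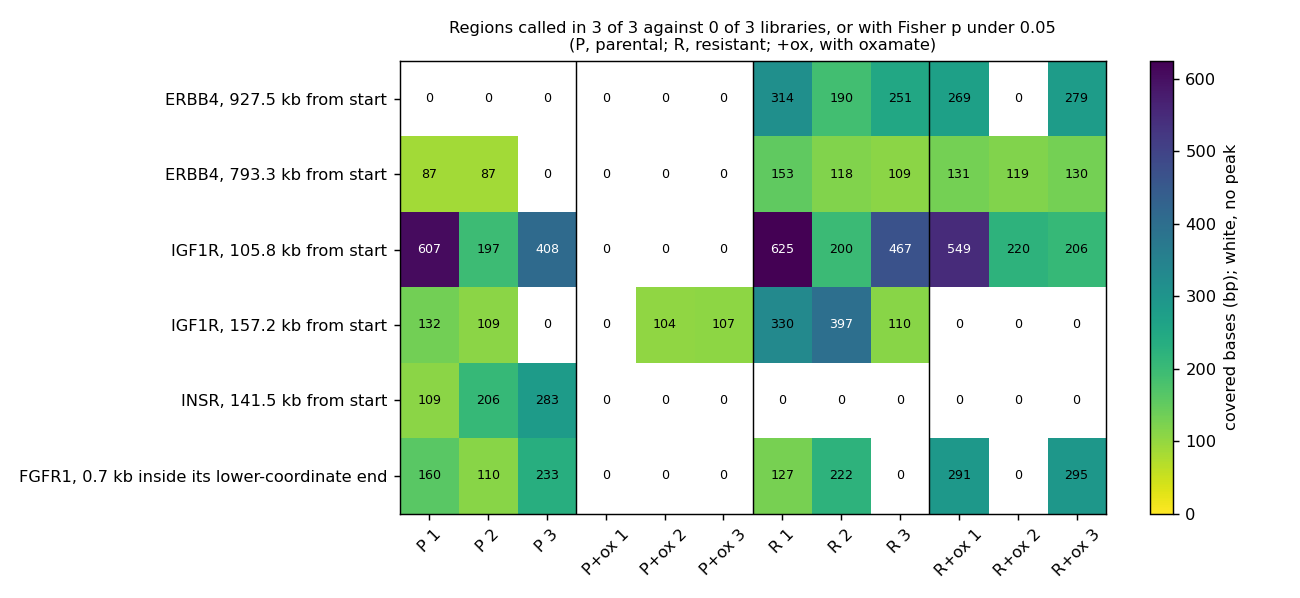
Covered bases in bp (colour and number, white where no peak was called) of the 6 receptor regions called in 3 of 3 against 0 of 3 libraries of a pair of groups or with a Fisher p under 0.05, with 1 column per library (P parental, R resistant, +ox with oxamate). The IGF1R region at 105.8 kb is missing in the 3 treated parental libraries and present in the other 9, and the INSR region is present in the 3 untreated parental ones alone.

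Width was compared over the shared regions. Among the 33 receptor regions called in 12 libraries, treated parental libraries were narrower than untreated parental ones without overlap at 10 and wider at 0, against 30% and 0.464% of 24148 such regions in the series. In resistant cells 1 was narrower with treatment (EGFR at 167.1 kb) and 0 wider, against 5.64% and 1.65%. Untreated resistant libraries were wider than untreated parental ones at 7 and narrower at 0, against 19.1% and 1.06%. Treated resistant libraries were wider than treated parental ones at 17 and narrower at 0, against 48.7% and 0.779%. These shares lie near those of the series, so they are no result about the receptors.

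Ligands, adaptors, negative regulators and other receptors of the same pathways were examined as lists, beside the 10.2% of all genes called higher in resistant cells. In each list 0 genes were called in 10 of the 12 fits that left out 1 library. The exceptions were the fits without untreated resistant replicate 2 and treated resistant replicate 2. Without the first of these, 13 ligands, 4 adaptors, 10 negative regulators and 7 other receptors were called, and without the second 5, 2, 7 and 5. In these 2 fits 6561 and 3550 genes of the series were called, against 3358 with all libraries. The 10.2% is therefore not the share to set beside the first. Of 23 tested receptor ligands 6 (26.1%) were called higher in resistant cells and 0 lower by exact permutation with adjustment over all genes, and the median log2 ratio was 0.81, and 0.46 per Mb covered. EREG and AREG, ligands of EGFR, had resistant means of 4143 ± 695 and 1658 ± 536 bp against parental means of 2180 ± 857 and 655 ± 222 bp (SD, n = 6). IGF2, a ligand of IGF1R, had 1623 ± 318 against 633 ± 259 bp and NRG4, a ligand of ERBB4, 1270 ± 371 against 472 ± 396 bp (SD, n = 6). The call was lost in 16 of 21 alternatives at EREG and in 15 at AREG. Of 30 adaptors and effectors 1 (3.33%) was called, AKT1, the kinase downstream of PI3K, whose call was lost in 16 alternatives, with 2936 ± 642 against 1118 ± 689 bp (SD, n = 6), and the median log2 ratio of the list was 0.37, that of all genes.

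Among 21 tested negative regulators 6 (28.6%, against 10.2% of all genes) were called higher and 0 lower, with a median log2 ratio of 0.44, and 0.06 per Mb covered. PTPRJ, a receptor phosphatase, had 3771 ± 476 against 1842 ± 711 bp, DUSP6, a phosphatase of ERK, 2490 ± 597 against 893 ± 579 bp, GRB10, an inhibitor of insulin and IGF1 receptor signalling, 2943 ± 397 against 1490 ± 844 bp and SOCS2 2550 ± 264 against 1545 ± 428 bp (SD, n = 6). The DUSP6 call was lost in 15 of 21 alternatives. Of 34 tested other receptor tyrosine kinases 4 (11.8%) were called higher and 0 lower, a share near that of all genes and so no result about the list. The 4 were PTK7, EPHB4, MUSK and PDGFRA, and the list had a median log2 ratio of 0.40, and -0.02 per Mb covered. For the 10 receptors themselves the median was 0.43, and -0.01 per Mb covered. Per Mb covered 0 genes of each list were called, as were 0 genes of the series by exact permutation, and treatment called none in any list. Because a call needs many genes at the smallest p, 0 calls does not show that these genes were equal.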

How the data were processed

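Reads of the 12 ATAC-seq libraries had been mapped by the authors to hg38 with Bowtie2 2.1.0, and mitochondrial, duplicate and non-unique reads removed. Peaks were called library by library with MACS2 on paired-end fragments. The MACS2 version, the control and any blacklist are not given in the sources used here. The deposited broad peak lists hold positions, a score, the authors' fold over background (a ratio), a -log10 p-value and a -log10 q-value, and no read counts, so width depends on fragment length, depth and threshold.

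From each list, peaks on chromosomes 1 to 22 and X were kept (0.892% of 677901 left out). Covered bases are the bases of the RefSeq gene span plus 5 kb that lie under a peak, and overlapping peaks of all libraries were merged into regions. Genes with a peak in at least 3 libraries were tested (32585) by two-sided exact permutation within phenotype or treatment (400 assignments, smallest p 0.005), with Benjamini-Hochberg adjustment at 0.05 over all of them. Pairs of 3 against 3 libraries can reach no p under 0.1 and are described by overlap. Regions called in 5 to 7 libraries were tested by Fisher's exact test. Log2 ratios are of group means plus 100 bp. For relative depth, a background level was estimated from the most frequent pair of deposited fold and -log10 p-value, taken as a Poisson tail. That level was divided by the smallest peak width of the library. The counting of covered bases and the exact permutation test by phenotype were checked on simulated data. The treatment and interaction tests, the replicate block, Fisher's exact test and limma were not checked in this way. Python 3.11.15, numpy 2.4.6, pandas 2.3.3, scipy 1.17.1, R 4.3.3 and limma 3.58.1 were used. Sequences are from RefSeq (GRCh38.p14), no exon annotation was used, and start windows were matched by symbol.

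Named regions were those at starts, those in 3 of 3 against 0 of 3 libraries or with a Fisher p under 0.05, and the widest shared region of each gene, and other regions were added after their values were seen. From each pathway list at most 4 called genes were named, those of smallest p and then largest difference. The receptors and lists were chosen with earlier results of these data known. Alternatives were another q threshold, equal numbers of top-ranked peaks, a width filter, scaling to covered bases, no flank, another gene filter, 50% overlap, limma, the exclusion of each library in turn and a replicate block. The value of 1 cell type marker is not reported here.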

Additional observations from a re-analysis of the deposited data

How the results depend on the processing

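Peak widths differ between libraries with depth and fragment length, no read counts were used, and 3 libraries a group limit every pair to a description. Over the settings, 197 of 210 values by phenotype kept their direction. By treatment 199 of 210 did, and for the interaction 197 of 210. These counts are no measure of robustness, because 12 of the settings each left out a library and so shared most of their data. Most of the 13 reversals by phenotype came from scaling per Mb covered. There the direction reversed at ERBB2, ERBB3, MET, AXL and INSR. With another q threshold as well, it reversed at EGFR, ERBB2, ERBB3, AXL, INSR and PDGFRB. At these receptors the direction by phenotype depended on the scale. The numbers of called receptors by treatment and for the interaction were 0 under every setting, limma included. The cause of the differences below was not tested.

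When -log10 q had to be at least 3, 2 receptors and 8368 genes of the series were called by phenotype, and the PDGFRB interaction was -80 bp. At that limit 1 receptor was lower in treated than untreated resistant cells, against 4.59% of all genes. In untreated resistant against untreated parental cells 3 were higher, against 21.5%. The regions lost with treatment in resistant cells, and gained and lost in untreated resistant cells, numbered 0 each, those gained in treated resistant cells 4, and 3 start windows had a peak in 12 libraries. With 45748 top-ranked peaks per list, 3 receptors and 6159 genes of the series were called by phenotype. At this setting 2 receptors were higher in untreated resistant cells, against 20.5% of all genes. With the same peaks 0 regions were lost in treated parental or in untreated resistant cells. With peaks of at least 124 bp, 0 regions were lost with treatment in resistant cells and 0 in untreated resistant cells. With peaks covering at least 50% of a region these were 0 and 0, with 2 gained in untreated and 7 in treated resistant cells. Shares of genes called by phenotype and shares over all regions were not computed at these settings. The counts of called receptors and of regions are therefore no result about the receptors.

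Per Mb covered the phenotype difference was -20.8 at ERBB2, -1.36 at ERBB3, -16.5 at MET, -13 at AXL and -28.7 at INSR. The treatment difference was 13.2 at ERBB2, 0.296 at ERBB4, 10.7 at MET and 5.77 at INSR, and the interaction was -30.6 at EGFR, -0.836 at ERBB3 and -12.3 at MET. Receptors apart numbered 3 lower in treated parental (9.3% of all genes), 1 higher in treated resistant (4.08%) and 2 lower in untreated resistant cells (8.61%). In treated resistant against treated parental cells 2 were higher (13.9%) and 2 lower (10.9%). Without the flank, the INSR phenotype difference was -42 bp and the MET interaction -15.7 bp. There 3 receptors were higher in untreated resistant cells, against 15% of all genes.

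Chosen after seeing the data, the same limit on -log10 q scaled per Mb covered gave phenotype differences of -11.2 at EGFR, -27.9 at ERBB2, -19.3 at ERBB3, -26 at AXL, -28 at INSR and -4.63 at PDGFRB. Treatment differences were 8.89 at ERBB2, 2.09 at ERBB3, 4.33 at MET, 3.71 at AXL and 11.6 at INSR, and interactions -0.444 at ERBB2, -15.5 at ERBB3, -14 at INSR and -12.1 at PDGFRB. Receptors apart numbered 2 lower in treated parental (9.8% of all genes) and 1 lower in treated resistant cells (3.05%). In untreated resistant cells 2 were higher (6.14%) and 1 lower (12.5%). In treated resistant against treated parental cells 2 were higher (17.5%) and 2 lower (25.7%).

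With limma 5 receptors and 9463 genes were called by phenotype, against 0 and 3358 by exact permutation. The number of genes called by exact permutation was 8368 with that limit on -log10 q, 6159 with top-ranked peaks, 3600 with the width filter, and 0 per Mb covered, without the flank or with a peak in at least 1 library. Over settings the called genes numbered 0 to 15 among ligands, 0 to 7 among adaptors, 0 to 12 among negative regulators and 0 to 12 among other receptor tyrosine kinases.

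Leaving out 1 library gave 0 to 3 receptors called by phenotype, the 3 without untreated resistant replicate 2, and 0 genes of the series in 10 of 12 cases, 6561 without that library and 3550 without treated resistant replicate 2. The INSR phenotype difference ranged from -14.9 (without untreated parental replicate 3) to 270 bp, the ERBB4 treatment difference from -188 to 48.7 bp (without untreated resistant replicate 1), and the interactions of EGFR from -81.2 (without untreated resistant replicate 2) to 1659, PDGFRB from -72 (without untreated parental replicate 2) to 500 and MET from -20.8 (without treated parental replicate 1) to 481 bp. Receptors apart ranged from 0 to 2 higher with treatment in resistant cells, and 1 to 4 higher and 0 to 1 lower in untreated resistant cells. Shares over all genes and regions are not given for these fits, so the counts are no result about the receptors. Regions gained and lost ranged from 0 to 1 and 3 to 8 in treated parental cells, 0 to 2 and 1 to 3 in treated resistant cells, 1 to 4 and 1 to 3 in untreated resistant cells, and 2 to 10 and 0 to 2 in treated resistant against treated parental cells, with 8 lost without untreated parental replicate 3 and 10 gained without treated resistant replicate 2.

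With the replicate block (labels permuted within replicate number, smallest p 0.0312 by exact permutation), 0 receptors and 0 genes were called by phenotype, treatment or interaction. At that smallest p most genes would have to share it for any to be called, so 0 calls does not decide whether they differed. The correlation of same-numbered libraries' deviations from their group means lay between -0.140 and 0.169 over 18 pairs. Over 36 pairs of different number it lay between -0.149 and 0.124. Between untreated and treated resistant cells the same-numbered pairs had 0.101, 0.169 and 0.0481, and the different-numbered ones lay between -0.149 and 0.0598. Whether same-numbered libraries share a batch was not tested.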
